A study of Mus musculus with 60 samples.

Results

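Lysosomes are the acidic organelles in which cells break down proteins, sugars and lipids, and autophagy is the route by which a cell wraps its own cytoplasm in membrane and delivers it to them. Cathepsins and other hydrolases do the digestion, membrane proteins such as Lamp1 and Lamp2 line the organelle, a proton pump acidifies it, and the ATG8 proteins with their conjugation enzymes build the autophagosome. Muscle fibres depend on this route: loss of acid alpha-glucosidase (Gaa) or of Lamp2 causes inherited muscle disease with material stored in lysosomes. The 45 genes described here are a list of such genes given by name, drawn up with earlier results of these data known. All 45 had probes on the arrays, among 15092 named genes in all. Of their 47 probes, 36 could be tested, 1 for each of 36 members (76.6% of the probes).

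The genes were measured in total RNA of 5 mouse cell lines on 2-colour arrays, with 3 cultures per line (15 cultures). IM2 was untransfected. WTA (labelled high) and WTD (low) carried wild-type Pabpn1, and D7E (high) and D7F (low) carried the mutant gene. The product of Pabpn1 binds poly(A) tails in the nucleus, and the labels name oculopharyngeal muscular dystrophy (OPMD), which in people is caused by an expanded alanine stretch in that protein. The labels used here name neither the mutation, the promoter, the tissue nor whether a line was 1 clone. Each genotype and level stands on 1 line. The p-values rest only on the spread between cultures within lines, pooled over all lines fitted. They take in no spread between lines of the same kind. Each culture was compared with 1 common IM2 reference on 4 arrays, both dye orientations on each of 2 array parts with different probes, 60 arrays in all. The values below are log2 ratios of culture over reference. Their size holds only if the deposited logs are to base 10, and a ratio gives no level, so genes are not ranked by abundance.

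For Pabpn1, IM2 had a mean log2 ratio of -0.18, WTA and WTD had 2.19 and 1.43, and D7E and D7F 1.61 and 0.92, the order of the labels within each genotype. Array quality differed: the share of rows with a value inside the scale's limits ran from 62.9% to 99% over arrays of part I and from 36.9% to 94.7% over those of part II, and 5 of the 9 arrays under 70% were of IM2. The only one of part I was the Cy5 array of IM2 culture 1 (62.9%). All members called in the main tests below had part I probes, so leaving out the 9 arrays took only that array from their values. Member probes were inside the limits on a median of 30 of 30 arrays, against 26 over all probes. The 2 dye arrays averaged for a culture agreed poorly over all probes. Their correlation ran from r = -0.346 (IM2 culture 1, part I) to 0.255 (D7E culture 3, part I). On part I it was negative in every IM2 culture (-0.346, -0.228 and -0.170), so the IM2 values averaged arrays that disagreed. The muscle markers moved with the transfected lines: 8 of 23 tested muscle probes rose against IM2 and 0 fell, while among 9 fibroblast probes 1 rose and 3 fell, Col3a1 by 1.44, beside 6.40% of all probes higher and 8.83% lower. Leaving out IM2 culture 1 or 3 brought the muscle count to 1 or 3. It was 1 with the arrays centred and scaled, 3 with them centred, 2 with limit values kept and 4 without those 9 arrays, with 0 lower in each. Of 15 leukocyte marker genes only Laptm5 and Aif1 could be tested, and of the osteoclast markers Acp5, Calcr and Dcstamp. None of these 5 passed (limma; 0 at an unadjusted p under 0.05, the smallest adjusted p being 0.2515 for Aif1). The part of these cell markers in the results on the members was not tested. In RNA from whole cultures, fewer cells of a type and less RNA per cell cannot be told apart.

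Many lysosomal promoters hold the E-box CACGTG, often inside the longer CLEAR element, which TFEB and related factors bind. The stretches below show such matches in promoters of members whose array values are given later. They were chosen to show a called gene with 1 match (Gaa), a called gene with a pair of 8-base matches (Gla), and 3 members that did not pass the test (Ctsd, Lamp1, Atg3). Capitals mark CACGTG or, where it is complete, TCACGTGA; the sequences run 5′ to 3′ on the gene's strand and come from RefSeq on GRCm38.p6.
Gla, minus strand, chrX:134601178-134601248: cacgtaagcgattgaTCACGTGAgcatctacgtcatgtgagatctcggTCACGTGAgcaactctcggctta
Gaa, plus strand, chr11:119267808-119267843: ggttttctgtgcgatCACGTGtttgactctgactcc
Ctsd, minus strand, chr7:142387904-142388077: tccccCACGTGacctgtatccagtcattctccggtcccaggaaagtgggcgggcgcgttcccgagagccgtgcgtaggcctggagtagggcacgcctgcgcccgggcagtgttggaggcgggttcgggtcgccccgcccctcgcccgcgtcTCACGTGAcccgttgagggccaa
Lamp1, plus strand, chr8:13159085-13159166: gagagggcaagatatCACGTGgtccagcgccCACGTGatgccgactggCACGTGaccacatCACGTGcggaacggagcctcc
Atg3, plus strand, chr16:45158720-45158779: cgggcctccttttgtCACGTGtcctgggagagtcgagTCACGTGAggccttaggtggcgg

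The motifs were searched on both strands in windows of 300 bases, 250 before to 50 after the start; each TCACGTGA also counts as a CACGTG. Of the 45 members, 38 matched an entry, with 41 windows. CACGTG was in 13 of the 41 windows (31.7%), against 7.15% of all 32851 windows of that length, and TCACGTGA was in 6 (14.6%) against 0.974%. The full 10-base CLEAR palindrome was in 0 member windows and in 0.326% of all windows. Lamp1 held 4 matches at 58, 42, 25 and 12 bases before its start (positions -58, -42, -25 and -12), while Gla held its pair at -224 and -191. These matches are a description of the letters and no measure of a factor's binding.

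**Figure D1:**
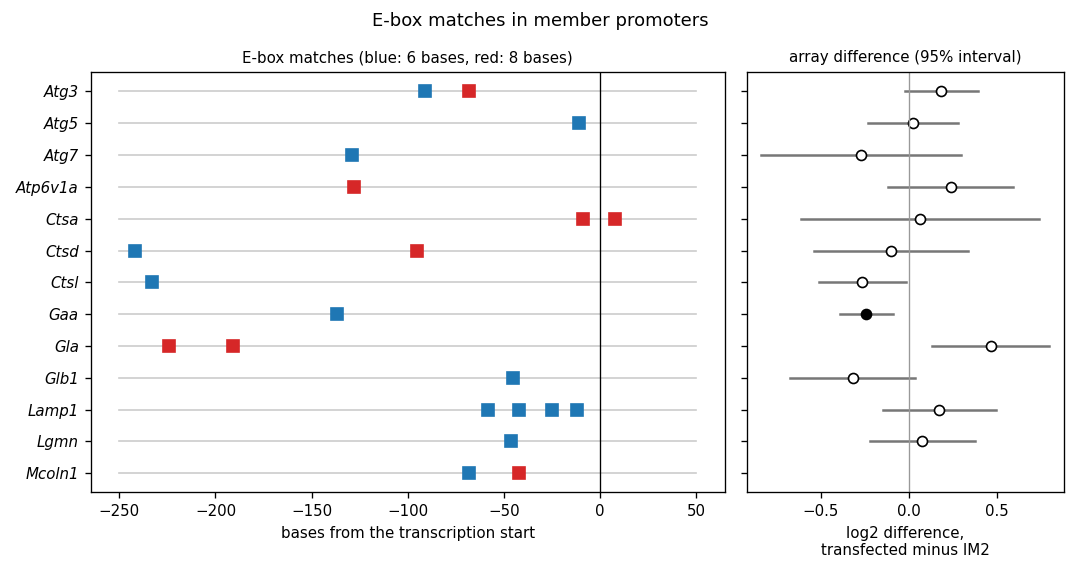
Positions of CACGTG (blue) and TCACGTGA (red) in the promoter windows of 13 members, in bases from the transcription start (left), and the log2 difference between the transfected lines and IM2 for the tested ones, with its 95% interval (right; filled point: adjusted p under 0.05). The 12 tested members lie on both sides of 0, 7 above and 5 below, and Gaa alone passed the test.

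The mean of the 4 transfected lines was set against IM2 first. Ctsc and Becn1 rose (2 of 36, beside 6.40% of all probes), and Npc2, Psap and Gaa fell (3, beside 8.83%). In all these were 5 of 36 tested members (13.9%), where 15.2% of all 9719 tested probes passed (limma with Benjamini-Hochberg adjustment over all of them). The members' share was thus close to that of the whole array. Of the members, 23 had a positive and 13 a negative difference, beside 5168 and 4551 of all 9719 probes. Their median was 0.09 against 0.03 over all probes, and their median absolute difference was 0.24 against 0.26. At an unadjusted p under 0.05 there were 8 members (22.2%), beside 30.6% of all probes. When the IM2 ratios were reversed in sign, 17 of the 36 members changed direction, none of them among the 5 called. Of those 5, Ctsc and Becn1 still passed (limma, adjusted p = 0.0129 and 0.0439). Gaa, Npc2 and Psap did not (adjusted p = 0.131, 0.0941 and 0.395). In 4 members, Ctsc, Becn1, Gaa and Npc2, no transfected culture overlapped an IM2 culture, beside 11.5% of all probes. The count of 5 calls was 0 without culture 1 of IM2 and 1 without culture 3 of IM2. It was 2 without culture 2 of WTD or culture 1 of D7E, and 3 without culture 1 of WTD, culture 3 of D7E or culture 1 or 3 of D7F. Without the 9 arrays under 70% it was 3, with Cy5 arrays of the cultures alone 0, and with Cy3 arrays alone 2. With the values at the limits kept it was 1. Over all probes the calls then moved as well, from 1480 of 9719 to 1039 of 12941. For the other fits the share over all probes is not given here. These counts are therefore not by themselves results about the members. Set against the common reference in place of the IM2 cultures, which leaves out the control's own spread, 13 of 38 members passed (7 higher and 6 lower), beside 39.5% of all probes.

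**Figure D2:**
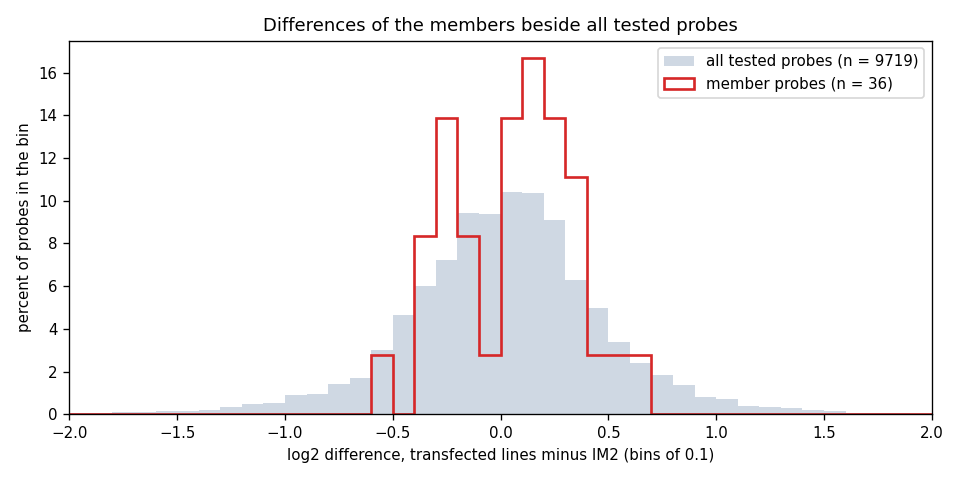
Distribution of the log2 difference between the mean of the 4 transfected lines and IM2, in bins of 0.1, as the percent of probes per bin for the 36 member probes (red outline) and for all 9719 tested probes (grey). The members lay between -0.59 and 0.64, inside the range of the array as a whole.

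Among the cysteine cathepsins, Ctsc rose. Ctsc encodes dipeptidyl peptidase 1, which trims dipeptides from protein ends and activates serine proteases of immune cells. Its log2 ratios were -0.09, 0.09 and -0.0062 in the IM2 cultures, 0.38, 0.42 and 0.52 in WTA, 0.57, 0.50 and 0.75 in WTD, 0.86, 0.59 and 1.40 in D7E and 0.17, 0.30 and 0.39 in D7F. All 12 transfected cultures lay above all 3 of IM2, with D7E highest and most spread. The mean difference was 0.57 (SE 0.13, adjusted p = 0.0149), which is 1.49-fold. Over 29 alternatives the call ended in 4, with adjusted p up to 0.266 (limma). Among them were the fits without culture 1 of IM2 (0.53, adjusted p = 0.072) and without culture 3 of IM2 (adjusted p = 0.055).

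Of the other cysteine proteases, none passed. Ctsl, a broad endopeptidase, differed by -0.26 (SE 0.12, adjusted p = 0.143), and 10 of its 12 transfected cultures were below the IM2 mean. Ctsz, a carboxypeptidase, stood at 0.33, Ctsb at 0.20, Lgmn, the asparaginyl endopeptidase that processes other cathepsins, at 0.08, and Ctsk, the collagen-cleaving cathepsin of osteoclasts, at 0.04 (adjusted p from 0.423 to 0.93). The IM2 cultures of Ctsb were 0.04, 0.0019 and -1.02, the last of them apart from every other culture of that gene.

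The remaining proteases held the member with the widest positive difference. Tpp1, a tripeptidyl peptidase whose loss causes a neuronal storage disease, had ratios of -0.85 and 0.07 in the 2 measured IM2 cultures and of -0.02 to 0.52 in the 11 measured transfected ones. The groups overlapped, and the difference of 0.64 (SE 0.21) missed the threshold (adjusted p = 0.0672). Without culture 2 of IM2 it was 1.09 (adjusted p = 0.00684), which leaves the single IM2 culture at -0.85, assumed to vary like the other lines, and with the IM2 sign turned it was -0.15 (adjusted p = 0.664). Ctsd, the main aspartic protease of lysosomes, differed by -0.10, and Ctsa, a carboxypeptidase that protects Neu1 and Glb1, by 0.06 (adjusted p = 0.766 and 0.912).

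No lysosomal membrane protein passed. Lamp1 differed by 0.17, Lamp2, which is needed for fusion with autophagosomes, by 0.12, Scarb2, the sorting receptor of glucocerebrosidase, by -0.03, the tetraspanin Cd63 by -0.18 and the cholesterol exporter Npc1 by 0.26 (adjusted p from 0.293 to 0.852). Lamp2 was not alike in the lines: WTA lay at 0.43, 0.72 and 0.91, IM2 at 0.45, 0.01 and -0.29, and the other lines at -0.33 to 0.39. The difference between WTA and IM2 was 0.63 (SE 0.21, adjusted p = 0.0758), and that between WTD and WTA was -0.66 (adjusted p = 0.152).

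Among the glycosidases, Gaa fell. Gaa encodes the acid alpha-glucosidase that degrades glycogen in lysosomes and is missing in Pompe disease. Its ratios were 0.0043, 0.05 and 0.08 in IM2, -0.13, -0.11 and -0.05 in WTA, -0.32, -0.20 and -0.17 in WTD, -0.35, -0.33 and -0.40 in D7E and -0.19, -0.04 and -0.08 in D7F. All 12 transfected cultures were below the 3 of IM2, with D7E lowest. The difference was -0.24 (SE 0.07, adjusted p = 0.0347), a 1.18-fold fall. This call was narrow and ended when culture 1, 2 or 3 of IM2, 1 or 2 of WTD, 1 or 3 of D7E, or 1 or 3 of D7F was left out (adjusted p = 0.0502 to 0.119). With the IM2 sign turned the difference was -0.16 (adjusted p = 0.131).

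Gla, the alpha-galactosidase missing in Fabry disease, had IM2 ratios of -0.86, 0.04 and -0.21. The transfected cultures were at 0.29, 0.31 and -0.08 in WTA, 0.45, 0.29 and 0.40 in WTD, 0.0087, 0.11 and 0.0033 in D7E and 0.05, -0.17 and -0.16 in D7F. The difference of 0.47 (SE 0.15) did not pass (adjusted p = 0.0584), and the IM2 culture at -0.86 lay apart from every other value. Without culture 2 of IM2 it was 0.66 (adjusted p = 0.0155), and with the IM2 sign turned -0.22 (adjusted p = 0.336). Hexa, a subunit of beta-hexosaminidase, stood at 0.34, Gusb, the beta-glucuronidase, at 0.12, Neu1, the lysosomal sialidase, at -0.24 and Glb1, the beta-galactosidase, at -0.32 (adjusted p from 0.195 to 0.662).

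Both called members of the lipid group fell. Npc2, the soluble cholesterol carrier that hands cholesterol to Npc1, had ratios of 0.17, -0.13 and 0.20 in IM2, -1.0, -0.23 and -0.49 in WTA, -0.38, -0.58 and -0.43 in WTD, -0.73, -0.99 and -0.25 in D7E and -0.34, -0.22 and -0.48 in D7F. All 12 transfected cultures were below the IM2 cultures, and the lines overlapped each other. The difference was -0.59 (SE 0.17, adjusted p = 0.0335), a 1.51-fold fall. It did not pass without culture 1 of IM2 (-0.55, adjusted p = 0.127) or culture 3 of IM2 (adjusted p = 0.125), nor without culture 2 of WTD, culture 1 of D7E or culture 3 of D7F (adjusted p = 0.051 to 0.0527). With the 9 arrays of few values left out, which for Npc2 took away only the Cy5 array of IM2 culture 1, it was -0.54 (adjusted p = 0.08). With the IM2 sign turned it was -0.43 (adjusted p = 0.0941).

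Psap encodes prosaposin, the precursor of the saposins that present sphingolipids to hydrolases. Its ratios were 0.36, 0.07 and -0.05 in IM2, -0.54, -0.59 and -0.06 in WTA, -0.27, -0.17 and -0.33 in WTD, -0.42, -0.33 and -0.34 in D7E and -0.17, -0.06 and -0.0049 in D7F. The groups overlapped through culture 3 of D7F alone. The difference was -0.40 (SE 0.12, adjusted p = 0.0376), a 1.32-fold fall. Without culture 1 of IM2 it was -0.28 (adjusted p = 0.2), with the 9 arrays left out -0.35 (adjusted p = 0.0789), and with the IM2 sign turned -0.15 (adjusted p = 0.395). The call also ended without culture 2 of IM2, culture 1 of WTA, any culture of WTD or D7E, or culture 1 or 2 of D7F (adjusted p = 0.05 to 0.0609). Ppt1, a thioesterase that removes fatty acids from proteins, differed by 0.23, and Asah1, the acid ceramidase, by 0.36 (adjusted p = 0.219 and 0.516). In Asah1 the IM2 cultures spread from -1.54 to 0.72.

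**Figure D3:**
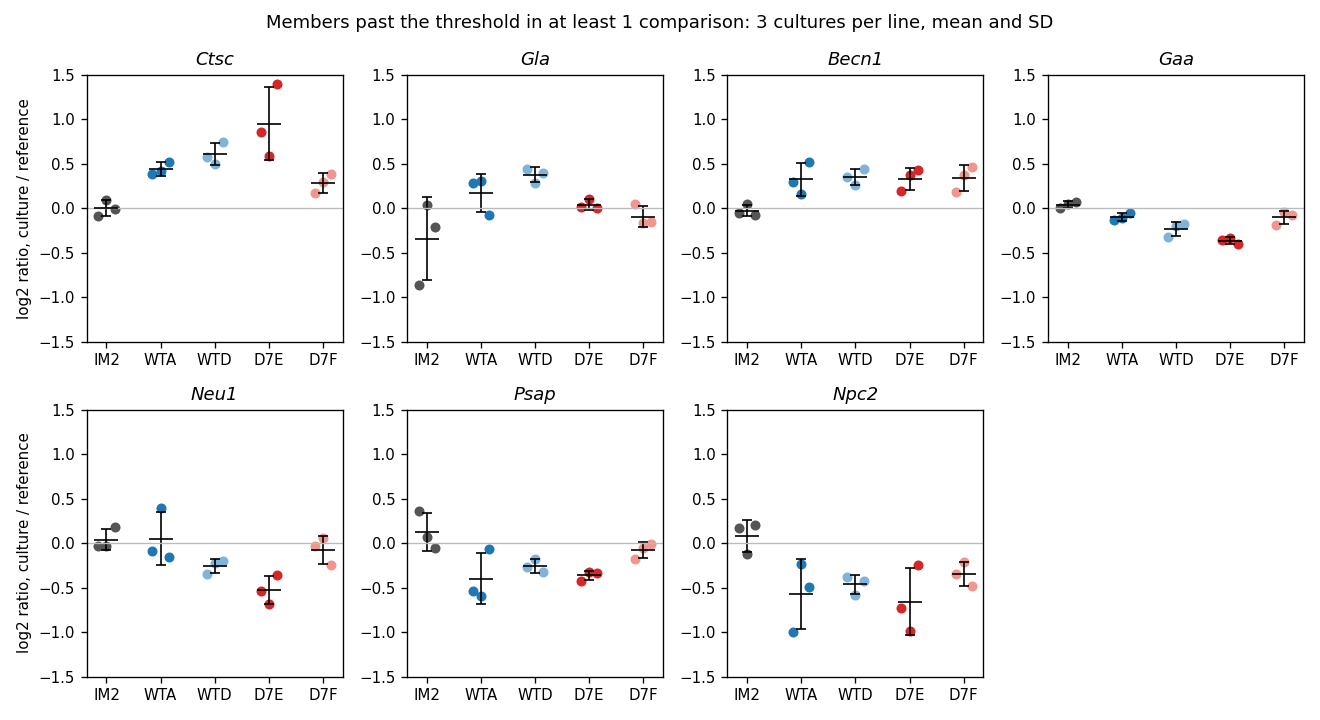
Log2 ratio of culture over reference for the 7 members that passed the test in at least 1 comparison with IM2, 1 point per culture, 3 cultures per line, with the mean and SD. For Ctsc, Becn1, Gaa and Npc2 the 12 transfected cultures lie apart from the 3 of IM2.

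Of the autophagy genes, Becn1 rose. Becn1 encodes Beclin 1, a subunit of the lipid kinase complex that starts the autophagosome membrane. Its ratios were -0.05, 0.04 and -0.07 in IM2, 0.29, 0.15 and 0.52 in WTA, 0.35, 0.26 and 0.44 in WTD, 0.19, 0.37 and 0.43 in D7E and 0.18, 0.37 and 0.47 in D7F. All 12 transfected cultures were above the IM2 cultures, and the means of the lines were 0.32, 0.35, 0.33 and 0.34. The difference was 0.36 (SE 0.10, adjusted p = 0.0256), which is 1.29-fold. Over 29 alternatives the call ended in 9, with adjusted p up to 0.107 (limma). Among them were the fits without culture 1 of IM2 (adjusted p = 0.0913) or culture 3 of IM2 (adjusted p = 0.0949). Another was the fit with each array centred on its median (0.31, adjusted p = 0.0819).

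The ATG8 proteins are small ubiquitin-like proteins that are joined to lipid on the autophagosome and bind cargo receptors. Of the 3 tested ones none passed. Map1lc3a had ratios of -0.15, -0.07 and 0.09 in IM2, 0.10, 0.24 and -0.05 in WTA, 0.33, 0.23 and 0.05 in WTD, 0.21, 0.10 and -0.03 in D7E and 0.0008, -0.16 and -0.23 in D7F, a difference of 0.11 (adjusted p = 0.534). Gabarapl2 had -0.16, -0.10 and 0.01 in IM2, 0.13, 0.32 and 0.09 in WTA, 0.29, -0.03 and 0.12 in WTD, -0.15, 0.18 and 0.09 in D7E and 0.14, 0.24 and 0.08 in D7F, a difference of 0.21 (adjusted p = 0.221). In both, transfected cultures overlapped those of IM2. Gabarap had 0.10, -0.12 and -0.09 in IM2, -0.31, 0.27 and -0.68 in WTA, 0.0087, -0.38 and -0.38 in WTD, -0.07, -0.80 and -0.33 in D7E and -0.18, -0.53 and -0.50 in D7F, a difference of -0.29 (SE 0.19, adjusted p = 0.328).

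Map1lc3b, the form of LC3 used most as an autophagosome marker, was not tested. The only IM2 culture with both orientations gave -2.82, the mean of -0.42 on 1 dye array and -5.22 on the other. The 1 measured WTA culture was also low, at -2.45, and 2 cultures of WTD were at -0.0084 and -0.31. The D7E cultures were at 0.62, 0.40 and 0.42, and 2 cultures of D7F at 0.35 and 0.30. If 1 culture per line were enough, Map1lc3b would pass with 2.37 (adjusted p = 0.00207), with that culture as the only one of IM2. Gabarapl1 had 1 measured IM2 culture (0.08) and WTA cultures from -3.23 to 2.48.

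The enzymes that conjugate ATG8 proteins did not pass. Atg3, the E2-like enzyme, differed by 0.19 (adjusted p = 0.21), with all 12 transfected cultures above the IM2 mean. Atg5, Atg12 and the E1-like enzyme Atg7 stood at 0.03, 0.06 and -0.27. The kinase Ulk1, which acts at the start of autophagy, stood at -0.34 (SE 0.16, adjusted p = 0.181), and the cargo receptor Sqstm1 (p62) at -0.20 (adjusted p = 0.211), with 1 of its 12 transfected cultures above the IM2 mean. Both listed proton pump genes were positive without passing, Atp6v1a at 0.24 and the accessory subunit Atp6ap1 at 0.25 (adjusted p = 0.344 and 0.502).

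**Figure D4:**
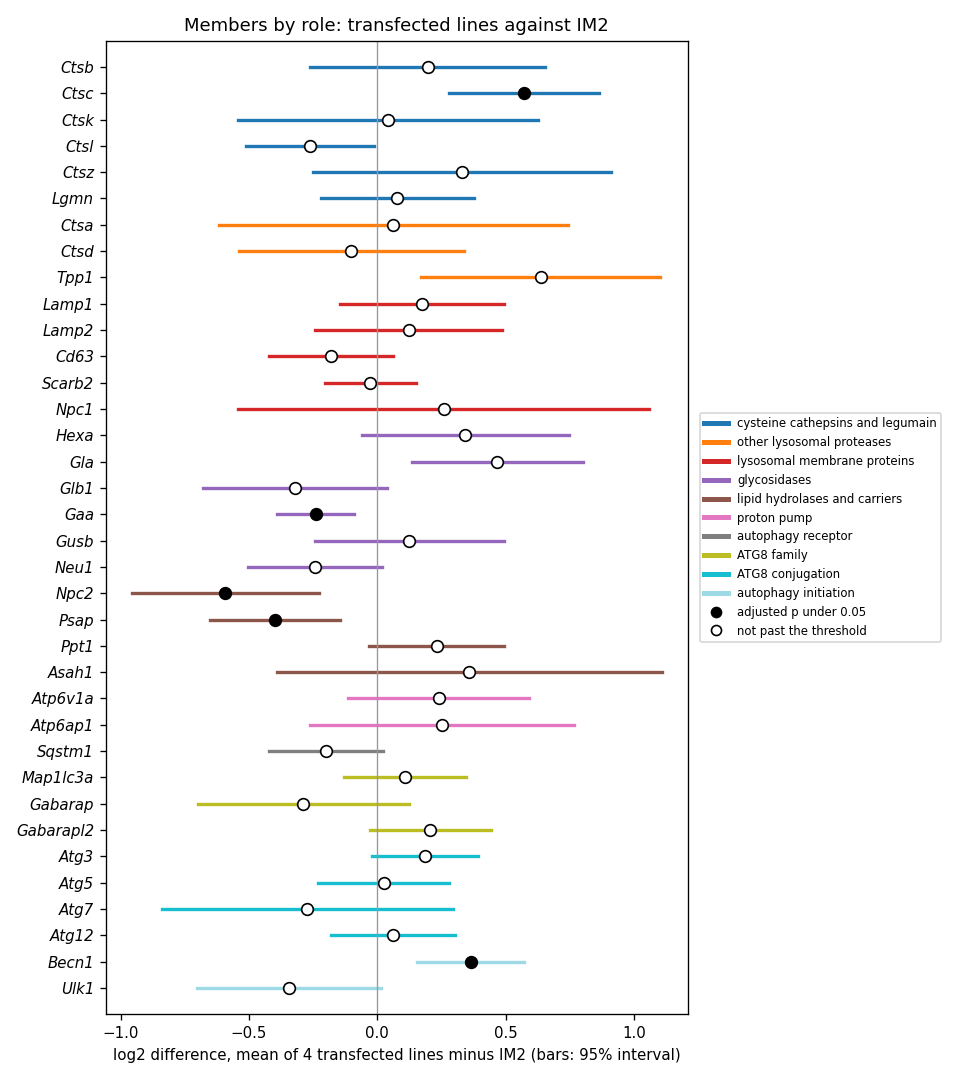
Log2 difference between the mean of the 4 transfected lines and IM2 for the 36 tested members, ordered and coloured by role, with 95% intervals. The 5 filled points passed an adjusted p of 0.05: Ctsc and Becn1 above 0, and Gaa, Npc2 and Psap below.

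Besides Map1lc3b and Gabarapl1, the members that were not tested were Ctsh, Ctss, Cst3, Cd68, Mcoln1, Man2b1 and Lipa, since fewer than 2 IM2 cultures, or cultures of another line, held both orientations inside the limits. Ctss, the cathepsin of antigen-presenting cells, had values inside the limits on 7 of 30 arrays. Cd68, a macrophage membrane protein, and the calcium channel Mcoln1 had them on 17 each. Ctsh, an aminopeptidase, had 25, and its D7E cultures were at -0.79, -2.42 and -1.60, against -0.05 in the 1 measured IM2 culture and -0.09 to 1.47 in the other lines. Within D7E, its Cy3 arrays gave -2.01, -4.15 and -2.59 and its Cy5 arrays 0.43, -0.69 and -0.61. Man2b1, an alpha-mannosidase, had 1.49, 3.34 and 0.07 in WTA. Lipa, the acid lipase, was at 0.05 in its 1 IM2 culture, and the cystatin Cst3, an inhibitor of cathepsins, at 0.37. The second probes of Ppt1 and Psap on part II were not tested either. For Ppt1, the 1 measured IM2 culture on part II was at 0.31. Its measured transfected cultures ran from -0.62 in D7E to 0.56 in WTD. For Psap, no IM2 culture was measured there, and its transfected cultures ran from -0.61 to 2.90, against -0.59 to -0.0049 on the part I probe.

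Each line was then set against IM2 on its own, with the IM2 cultures shared by all 4 comparisons. In WTA 1 of 36 members passed, beside 11.5% of all probes: Psap fell by 0.52 (SE 0.15, adjusted p = 0.0391). In WTD 1 passed, beside 7.03%: Gla rose by 0.72 (SE 0.19, adjusted p = 0.0435), which is 1.65-fold. In D7F 0 passed, beside 4.50% (limma; 3 members, or 8.33%, at an unadjusted p under 0.05, beside 20.7% of all probes, and 0 when D7F and IM2 alone were fitted). The smallest adjusted p there was 0.0861, for Ctsl at -0.49. Of the fits that each left out 1 culture, Psap in WTA passed only without culture 3 of IM2, culture 3 of WTA or culture 1 of D7F, and Gla in WTD only without culture 2 of IM2 or culture 3 of WTA. Without culture 1 of IM2 the Psap difference was -0.41 (adjusted p = 0.129) and the Gla difference 0.46 (adjusted p = 0.096). With the IM2 sign turned, the Gla difference was 0.03 (adjusted p = 0.946).

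In D7E, 5 of 36 passed (13.9%), beside 12.3% of all probes: 1 was higher (4.13% of all probes) and 4 were lower (8.21%). Ctsc rose by 0.95 (SE 0.17, adjusted p = 0.00481), 1.93-fold, and Gaa fell by 0.40 (SE 0.09, adjusted p = 0.0115). Neu1 fell by 0.57 (SE 0.15, adjusted p = 0.0305), with D7E at -0.54, -0.68 and -0.36 and IM2 at -0.03, -0.03 and 0.18, while WTA was at -0.08, 0.39 and -0.15, WTD at -0.34, -0.22 and -0.21 and D7F at -0.03, 0.05 and -0.25. Npc2 fell by 0.74 (adjusted p = 0.0403) and Psap by 0.49 (adjusted p = 0.0496). Over 30 alternatives, Ctsc and Gaa each lost the call in 3, Neu1 in 13, Npc2 in 21 and Psap in 26. Leaving out single cultures kept the count of called members between 2 and 5. It was 2 without culture 1 or 3 of IM2 and without culture 1 or 2 of D7E, and 3 without any culture of WTD or culture 2 or 3 of D7F. Psap passed only without culture 2 or 3 of WTA. With the 9 arrays of few values left out the count was 3. The shares over all probes in these fits are not given here. With D7E and IM2 alone fitted, 0 members and 174 probes of the whole table passed.

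**Figure D5:**
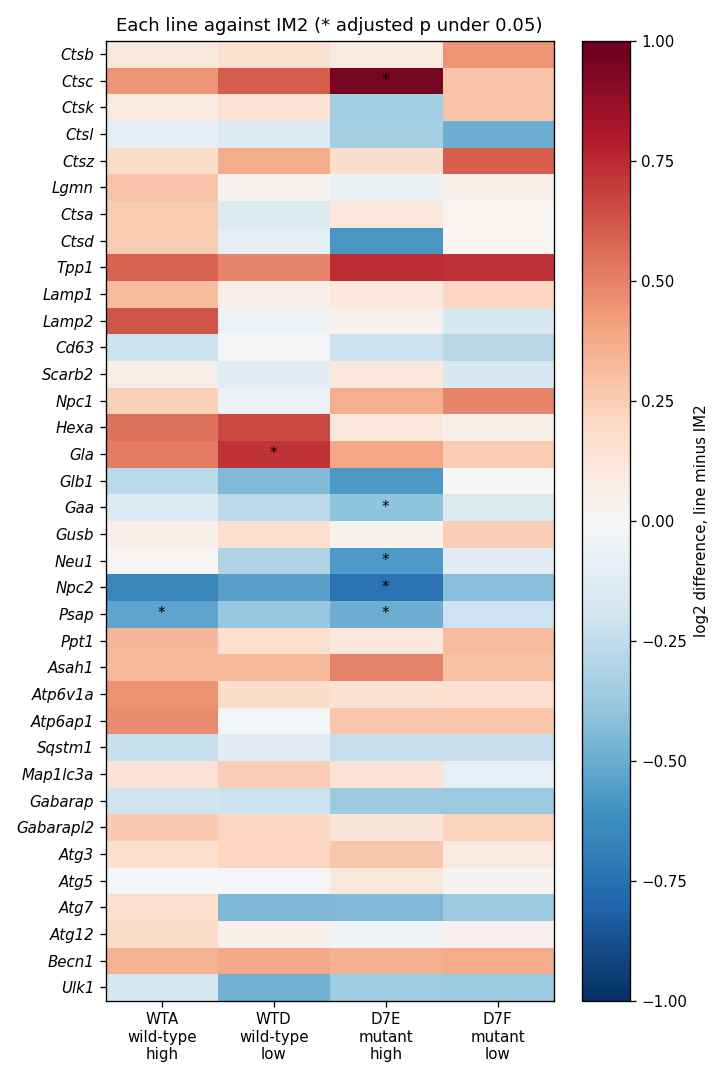
Log2 difference of each transfected line from IM2 for the 36 tested members (rows, by role), red higher and blue lower, with an asterisk at an adjusted p under 0.05. The 7 asterisks are Ctsc, Gaa, Neu1, Npc2 and Psap in D7E, Psap in WTA and Gla in WTD.

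The differences between transfected lines carried the questions of mutation and of level. Between mutant and wild-type lines 0 of 36 members passed, beside 0.195% of all probes (limma; 4 at an unadjusted p under 0.05, or 11.1%, beside 6.68%). Hexa was lowest with -0.51 (95% interval -0.87 to -0.15, adjusted p = 0.501): D7E was at -0.04, -0.12 and -0.16 and D7F at 0.05, -0.27 and -0.24, while WTA was at 0.45, 0.59 and -0.06 and WTD at 0.32, 0.43 and 0.57. Only 1 WTA culture overlapped the mutant cultures. Becn1 differed by -0.0014 with a 95% interval from -0.19 to 0.19, and Sqstm1 by -0.06. Between high and low lines 0 passed, beside 0.381% (2 at an unadjusted p under 0.05, or 5.56% beside 7.88%: Scarb2 at 0.21 and Lamp2 at 0.43, adjusted p = 0.433 and 0.45).

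The last comparison set the mean of WTD and D7E against that of WTA and D7F, the interaction of genotype and level. Here 0 members passed, beside 2.37% of all probes (limma; 5 at an unadjusted p under 0.05, or 13.9%, beside 14.3%). Neu1 had -0.38 (SE 0.11, adjusted p = 0.0851), Ctsc 0.42 (SE 0.12, adjusted p = 0.0924) and Gaa -0.20 (adjusted p = 0.121). The members' median was -0.10 and 24 of 36 were negative, beside a median of -0.02 and 5218 negative of 9719 over all probes. Without culture 2 of D7E, Ctsc passed with 0.51 (adjusted p = 0.0492). Treating the line as a random block gave 0 calls among the members in each of these 3 comparisons. None passed between any pair of transfected lines either. Of all probes, 1.77% passed for WTD against WTA, 1.64% for D7E against WTA, 0.288% for D7F against WTA, 0.453% for D7F against WTD, and 0.226% for each of D7E against WTD and D7F against D7E. The smallest adjusted p of a member was 0.0735, for Neu1 between D7E and WTA (-0.58). Over all 5 lines at once, Ctsc was the 1 member that differed (F test, adjusted p = 0.0241), beside 10.3% of all probes, and 10 members (27.8%) had an unadjusted p under 0.05, beside 25% of all probes. At an adjusted p under 0.05, no member passed without culture 1 or 3 of IM2. Without culture 2 of IM2 there were 3, and without culture 3 of WTA 2. The shares over all probes in those fits are not given here.

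A wider list of 133 lysosomal and autophagy genes outside the 45 had 84 tested probes of 81 genes. Against IM2, 8 of these probes were higher and 5 lower in the transfected lines (15.5%, beside 15.2% of all probes). Of the subunits of the proton pump, the V-ATPase, 4 of 12 tested rose (33.3%, beside 6.40% of all probes) and 0 fell (beside 8.83%). Their median was 0.33, beside 0.03 over all probes. They were Atp6v1c1 (0.57, SE 0.11, adjusted p = 0.00495), Atp6v1e1 (0.44, adjusted p = 0.00563), Atp6v0a1 (0.76) and Atp6v1d (0.68). Over all settings tried, 1 to 7 of the 12 rose, 0 fell and the median stayed between 0.24 and 0.37. The 7 came from the comparison with the common reference, where 39.5% of all probes passed. The 2 pump genes among the 45, at 0.24 and 0.25, lay below that median.

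Of 21 probes for other autophagy genes 3 passed (14.3%, beside 15.2% of all probes). Bnip3, a mitophagy receptor of the outer mitochondrial membrane, fell by 1.77 (SE 0.16, limma, adjusted p = 5.5e-05). Its means were -0.77 and -2.29 in WTA and WTD and -2.06 and -1.51 in D7E and D7F, beside 0.11 in IM2. In the interaction it had -1.03 (adjusted p = 0.00268), the 1 call in that comparison over this wider list (1.19% of its probes, beside 2.37% of all probes). Rb1cc1 (FIP200), a partner of Ulk1, rose by 0.45, and Atg13, another partner, fell by 0.60 (adjusted p = 0.00632), although Atg13 was at 0.38 in IM2 and differed by 0.16 with the IM2 sign turned. Of 17 probes for other lysosomal enzymes 2 fell (11.8%, beside 8.83% of all probes) and 0 rose (beside 6.40%). Naglu, which degrades heparan sulfate, fell by 0.69 (limma, adjusted p = 0.000538) and Arsa, an arylsulfatase, by 0.57 (adjusted p = 0.015). Of 21 probes for membrane and trafficking genes 2 rose (9.52%, beside 6.40% of all probes) and 0 fell (beside 8.83%). Those were Sort1 (0.73) and Cd164 (0.67), the latter at -0.03 with the IM2 sign turned. Of 13 probes around mTORC1, the kinase complex that holds back autophagy, 2 passed (15.4%, beside 15.2% of all probes). Mlst8 rose by 0.81 and Mtor fell by 0.48, and Mlst8 was at 0.03 with the IM2 sign turned. Atp6v0a1, Atp6v1d and Rb1cc1 were named after their values were seen.

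The promoter matches shown above can be set beside these values. Of the 12 tested members with CACGTG, 7 were positive and 5 negative, the median was 0.04, and 1 fell (Gaa). Of the 5 with TCACGTGA none passed and the median was 0.19, from -0.10 for Ctsd to 0.47 for Gla. The 18 with a window and no CACGTG had a median of 0.08, with 1 call higher and 2 lower. No test was made of these groups, and the share of windows with CACGTG among the wider list was 21%.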

How the data were processed

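The authors deposited log ratios of culture over reference for 60 arrays, taken here as log10 (the base is not stated; values stop at -2 and 2) and multiplied by 3.3219 to give log2. How spots were scanned, background-corrected and normalised is not given in the sources used. Values at a limit (7.71% of filled values on part I, 10.5% on part II) were dropped. Where titles and channel sources disagreed on the dye (WTA culture 3, part I), the sources were used, and 1 array of D7F culture 1 described as high was kept as low, by its title. Pabpn1 was positive on 24 of 24 part I arrays of transfected lines, whichever dye, so ratios were read as culture over reference. Part II and the IM2 arrays have no such marker.

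Rows with identical values were collapsed and control probes left out. Gene names came from the platform annotation, updated through Entrez identifiers to the GRCm38.p6 gene table. Both dye orientations were averaged per culture, and both were required. Probes with at least 2 cultures in every line were tested (4651 and 5068 probes) with limma 3.58.1 in R 4.3.3 (lmFit and eBayes), 1 fit per part with all 5 lines, and Benjamini-Hochberg adjustment over both parts (threshold 0.05). The fit was tested on simulated data. Precision is limited by the number of cultures, 3 per line. Ratios give no depth.

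The members and the lists were chosen with earlier results of these data known. Values in all cultures are given for members called in a comparison and for the ATG8 family, others by role. For the wider lists at most 2 called genes per sub-list were to be named. Alternatives varied the limit values, centring, direction of IM2, dyes, filters, arrays, samples and the replicate block.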

Additional observations from a re-analysis of the deposited data

Results flagged for a closer look

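Bnip3, the mitophagy receptor outside the 45 genes, stood out by a test of the difference between lines. The interaction of genotype and level (WTD with D7E against WTA with D7F) was -1.03 (SE 0.14, adjusted p = 0.00268; limma). The cultures were at -0.93, -1.08 and -0.30 in WTA and at -1.43, -1.45 and -1.66 in D7F. They were lower in WTD, at -2.27, -2.31 and -2.28, and in D7E, at -2.04, -1.88 and -2.26. No culture of the first pair of lines overlapped the second. The difference passed in every alternative run for it, with adjusted p up to 0.0465, reached with the line as a random block. That fit used 1 correlation within lines for all probes of a part, 0.015 on part I and -0.027 on part II. It thus took the cultures of a line as nearly independent, and cannot tell the interaction from differences between single lines. Of all probes, 2.37% passed in this comparison, beside 1.19% of the wider list. None of the 36 tested members passed in that comparison.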

How the results depend on the processing

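No called member changed direction under any alternative in the comparison in which it was called. For transfected against IM2, 29 alternatives were run. Ctsc lost the call in 4, Becn1 in 9, Npc2 in 14, Gaa in 17 and Psap in 22. Among members not called in transfected against IM2, 17 changed direction with the IM2 sign turned. Calls over all probes moved with the setting too. For transfected against IM2 they went from 1480 of 9719 probes to 1039 of 12941 with limit values kept. With 9719 probes tested they were 1268 centred, 1391 centred and scaled, and 1792 with the IM2 sign turned. For WTA they went from 1121 to 677, 1001, 382 and 1284 in the same order. The member counts in this section are therefore not by themselves results about the members. The counts of called members moved as follows. With limit values kept they were 0 over the 5 lines, 1 for transfected against IM2, 0 for WTA, 0 for WTD and 2 for D7E, and they were the same when 1 dye orientation was enough. Centred arrays gave 3 for transfected and 0 for WTA; centred and scaled arrays 0 for WTA, 4 for WTD and 1 for D7F. With the IM2 sign turned there were 2 for WTA, 3 for D7E and 1 for D7F. Cy5 arrays alone, with dyes by source or by title, gave 0 over the 5 lines, for transfected, WTA, WTD and D7E. Cy3 arrays alone gave 2 for transfected and 2 for D7E; by title also 0 for WTA and 2 for WTD. Probes measured in all 15 cultures gave 3 over the 5 lines, 4 for WTA, 4 for WTD, 1 for D7F and 2 for the interaction. With 1 culture per line enough there were 2 over the 5 lines, 3 for transfected, 0 for WTA, 3 for D7E, 1 for D7F, 1 for mutant against wild-type and 1 for the interaction, Map1lc3b among them. Without the 9 arrays under 70% there were 3 for transfected, 0 for WTA and 3 for D7E. Fitting a line and IM2 alone gave 0 for WTA, WTD and D7E.

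Against the common reference there were 13 of 38 for transfected, 6 for WTA, 5 for WTD, 8 for D7E and 3 for D7F. With the culture number as a replicate block there were 4 for transfected, 0 for WTA and 3 for D7E. Samples of the same number in different lines correlated with r = -0.181 to 0.287 (part I) and -0.164 to 0.406 (part II) in their deviations from the line means. Those of different numbers ran from -0.320 to 0.247 and from -0.359 to 0.297. The medians on part II were 0.049 for the same number and -0.014 for different numbers, and on part I -0.013 and 8.5e-05. Whether samples of 1 number shared more than the number was not tested. Leaving out 1 culture in turn gave 0 to 6 calls for transfected, 0 to 2 for WTA and likewise for WTD, 2 to 5 for D7E, 0 to 1 for D7F, 0 to 1 for the interaction, 0 to 3 over the 5 lines, and 0 to 0 for mutant against wild-type and for high against low. Of the genes outside the 45, Cd164 (-0.029) and Atg13 (0.16) changed sign with the IM2 sign turned. With limit values kept the median of all probes for transfected against IM2 moved from 0.03 to 0.12. The causes were not tested.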

Other observations

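Several members outside the calls passed against the common reference and not against the IM2 cultures, among them Atg3 (0.20), Atp6ap1 (0.37), Tpp1 (0.25) and Gabarap (-0.32). Ctsl and Ppt1 passed there and with the IM2 sign turned. Ctsl lay below 0 in all 12 transfected cultures, from -0.02 in WTD to -0.69 in D7F, and against the common reference it differed by -0.34 (adjusted p = 0.000225; limma). On its part I probe Ppt1 lay above 0 in all 12, from 0.10 in D7E to 0.74 in WTA. That probe differed from the reference by 0.35 (limma, adjusted p = 0.000604). The IM2 cultures of Ctsl were at 0.16, -0.07 and -0.33 and those of Ppt1 at -0.08, 0.16 and 0.26. With the IM2 sign turned, these differed from IM2 by -0.42 (Ctsl, adjusted p = 0.0249) and 0.46 (Ppt1, adjusted p = 0.0216). On the part II probe of Ppt1, which was not tested, the measured transfected cultures ran from -0.62 in D7E to 0.56 in WTD. These genes were picked out after their values were seen.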
